A study of Neurospora crassa with 30 samples.

Results

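The 80 *Neurospora crassa* genes described here were higher in mycelia exposed to maltose and to trehalose than on any of 8 other carbon sources. They were chosen by their measured values, from 9758 genes in all. For each gene, the mean CPM (reads on the gene per 1000000 reads on all genes) of 3 samples was taken on each carbon source. The score is log2 of the lower of the maltose and trehalose means plus 1, minus log2 of the highest of the 8 other means plus 1. A score above 0 and a mean of at least 10 CPM on both sugars were required, which 956 genes passed, and the 80 genes with the highest scores were taken. The rule leaves out 5 named genes for the breakdown of starch, maltose and trehalose.

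The samples are WT cultures of strain FGSC 2489 only. Mycelia were grown for 16 hrs in medium with 2% sucrose, washed, and moved for 4 hrs to minimal medium with 1 carbon source. This was maltose, trehalose, cellobiose, xylose, sorbose, mannose, fructose or glycerol at 2 mM, or a polymer, namely the cellulose preparation avicel or the hemicellulose xyloglucan, so the polymers are matched to the sugars in exposure time but not in concentration. Each of the 10 carbon sources has 3 replicates, which makes 30 samples with 13018483 to 21925749 reads on genes each. Reads outside annotated genes made up 2.43% to 8.79% of a library.

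Maltose, trehalose and cellobiose are disaccharides made of glucose alone, and they differ in how the glucose units are joined. In budding yeast, a supply of glucose is known to raise the making of ribosomes. In the nucleolus, RNA polymerase I makes a long precursor rRNA, and a large set of small nucleolar ribonucleoproteins, helicases, methyltransferases and assembly factors folds, trims and modifies it into the small and the large ribosomal subunit; most of these factors were first described in budding yeast, and the roles given here for them come from yeast. CRE-1 is the DNA-binding repressor of carbon catabolite repression, by which preferred sugars keep genes for other carbon sources low.

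By their annotation, 24 of the 80 members act in rRNA synthesis and ribosome assembly, 8 in other work on RNA, 9 in the synthesis of amino acids and nucleotides, 3 in central carbon metabolism and 3 in transport, and 1 is the regulator *cre-1*. A further 5 have another annotation, and 27 are hypothetical proteins or have no annotation. The 8 groups were made by hand after the names of the members were seen. With classes set by words in the annotation, 21 members (26.2%) fell into the class of ribosome and RNA, against 3.03% of the 8501 genes tested. The annotations come from the tables of the study, in which 5% of the members but 48.4% of the genes tested have no row, and among genes with a row there the shares were 27.6% (21 of 76) and 5.88% (258 of 4387). No member fell into the class of carbohydrate-active enzymes, to which 2.15% of the genes tested belong and from which the rule had removed genes by name.

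The members' scores ran from 0.68 to 2.36 with a median of 0.88. The lower of the 2 means was 1.61 to 5.63 times the highest other mean, with a median of 1.89, and 23 members had a score above 1. Their lower mean ran from 10.7 to 1475 CPM with a median of 38.3, and it was under 100 CPM for 67 members. In 79 members all 6 maltose and trehalose samples lay above all 24 others, against 3.87% of the genes tested, a count that the rule itself brings about. The exception was NCU06062, which has no annotation. Its lowest maltose sample stood at 8.86 CPM and the highest sample on another carbon source at 9.07 CPM.

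The last places of the list were taken by *tca-9* (NCU08471, succinyl-CoA ligase of the TCA cycle, score 0.69), the hypothetical gene NCU05894 (0.69) and NCU06409 (0.68), annotated as the ribosome biogenesis protein Kri1. Just outside it stood the hypothetical gene NCU01259 (0.68), NCU01331 (0.68), a protein of small nuclear and nucleolar ribonucleoproteins, and NCU00650 (0.675), annotated as Wdr1p. The scores pass over this edge without a gap. Of the 80 members, 54 were kept under each of 8 other ways to compute the score, among them 19 of the 24 ribosome assembly genes. *tca-9* was kept under 1 of the 8.

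**Figure D1:**
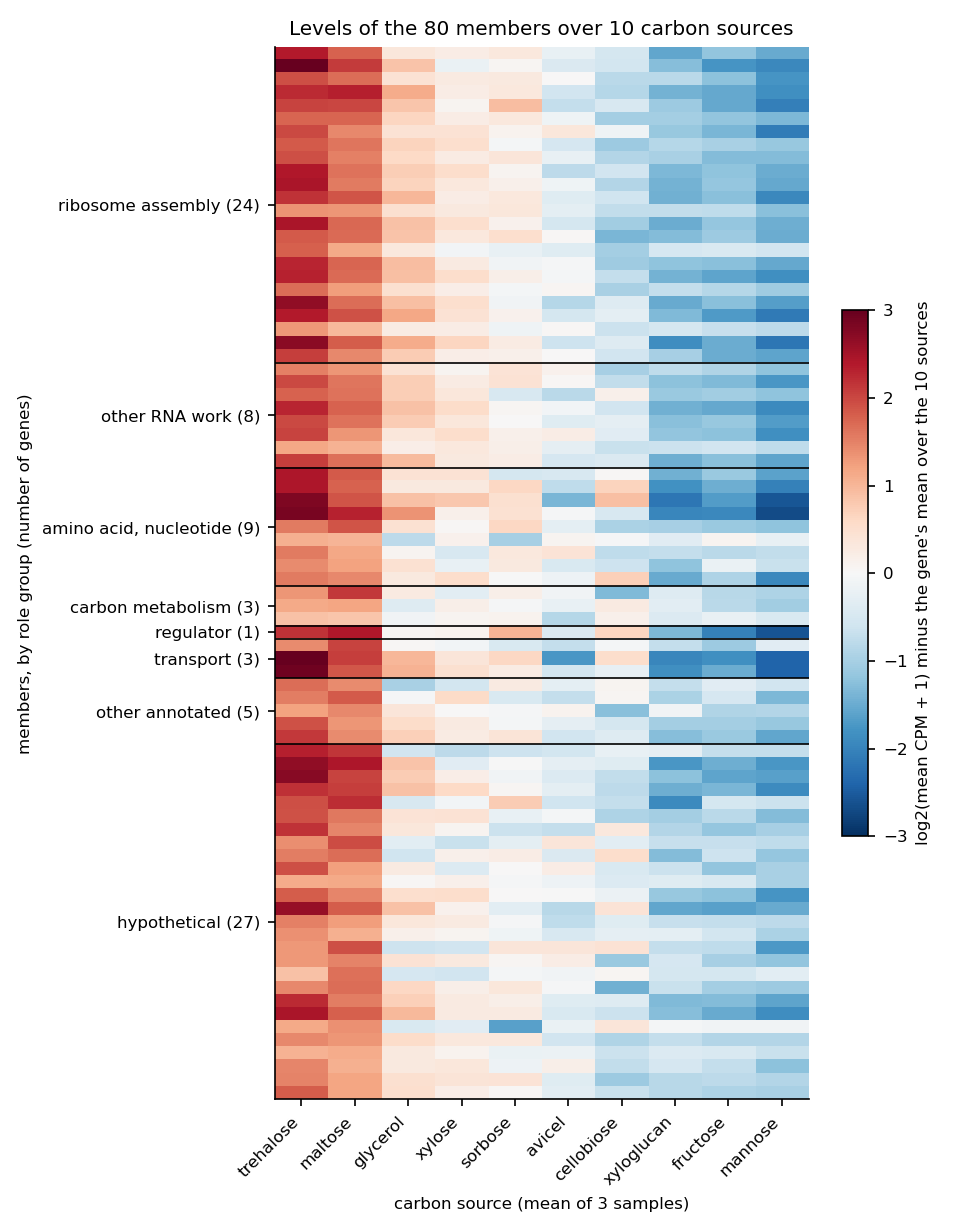
Each row is 1 of the 80 members and each column a carbon source; the colour is log2(mean CPM + 1) on that source minus the gene's mean over the 10 sources, and rows are ordered by role group and, within it, by score. Trehalose and maltose are the highest columns by construction, and among the others glycerol is the highest for 54 members and mannose the lowest for 57. These counts are given without a share over all genes.

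The highest score belonged to NCU07541, a hypothetical gene on chromosome III (4436088 to 4437815 in the RefSeq annotation of assembly NC12). Its 3 maltose samples stood at 54.6, 35.4 and 55.1 CPM and its 3 trehalose samples at 40.2, 70.1 and 55.2 CPM. The 24 other samples ran from 5.16 to 10.1 CPM with a median of 6.22. The next was the hypothetical gene NCU02155, with means of 25.5 CPM in maltose and 30.3 CPM in trehalose against 7.90 CPM in glycerol. Among the other sources its means went down to 0.47 CPM, in mannose and in xyloglucan.

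*cre-1* (NCU08807, chromosome IV, 5176440 to 5178927) stood at 1335, 787 and 1059 CPM in the maltose samples and at 915, 970 and 827 CPM in the trehalose samples. The highest of the 24 other samples, on sorbose, reached 433 CPM, and the lowest, on mannose, 28.3 CPM. Of all members it had the highest level per length in maltose, with 426 CPM per kb there and 363 CPM per kb in trehalose. Pyruvate kinase *ace-8* (NCU06075), the enzyme of the last step of glycolysis, followed with 270.3 CPM per kb in maltose. Next per length was NCU03497, annotated as an iron permease of the plasma membrane, with 208 CPM per kb.

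**Figure D2:**
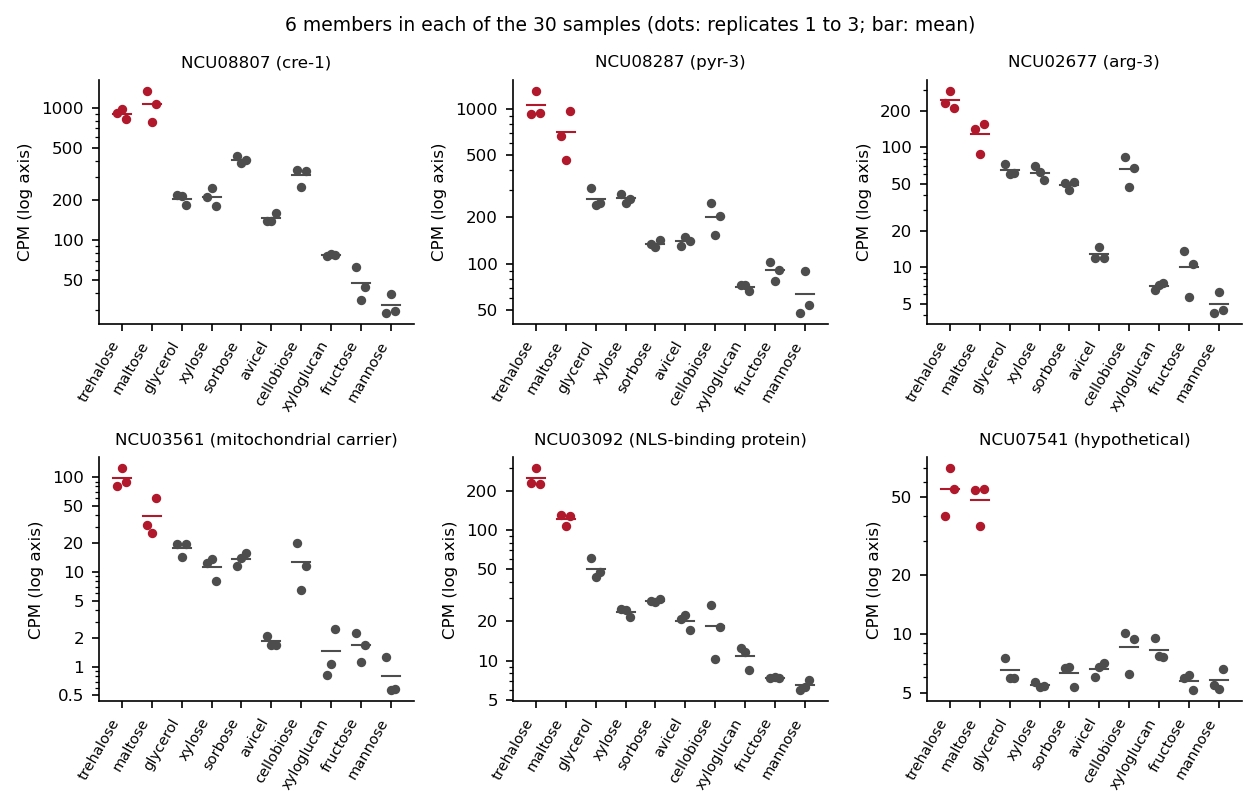
CPM of 6 members in each of the 30 samples on a log axis, with dots for replicates 1 to 3 and a bar for their mean; maltose and trehalose are red. All 6 red samples lie above the 24 others in each panel, which the rule itself largely brings about. The maltose and trehalose samples of *cre-1* overlap, and NCU07541 stays between 5.16 and 10.1 CPM on the other sources.

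Among the enzymes of nucleotide synthesis, *pyr-3* (NCU08287, chromosome IV, 2536775 to 2543372), which makes carbamoyl phosphate and carbamoyl aspartate for pyrimidines, stood at 669, 470 and 967 CPM in maltose and at 922, 1298 and 943 CPM in trehalose. The highest of the other samples, on glycerol, had 306 CPM. NCU03117, annotated as the IMP dehydrogenase IMD2 of guanine nucleotide synthesis, had means of 259 CPM in maltose and 382 CPM in trehalose against 133 CPM in glycerol. NCU05254, a ribose-phosphate pyrophosphokinase, which makes the sugar phosphate that purine and pyrimidine synthesis share, was lower, at 20.6 and 16.2 CPM against 7.91 CPM in sorbose.

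Arginine synthesis was represented by 3 members. *arg-2* and *arg-3* encode the small and the large subunit of the carbamoyl-phosphate synthase of this pathway, and *arg-13* the mitochondrial carrier of ornithine. Their means in maltose and trehalose were 176 and 190.4 CPM for *arg-2* (NCU07732), 130 and 247 CPM for *arg-3* (NCU02677), and 39.2 and 52.1 CPM for *arg-13* (NCU02802). The next carbon source was cellobiose for both subunits, at 105 and 66.0 CPM, and avicel for *arg-13*, at 22.8 CPM. *arg-3* was kept under all 8 other ways to compute the score, but *arg-2* and *arg-13* under 4 of the 8 each. Both were lost with TMM-scaled CPM, with DESeq2 size factors and with the median of replicates. All 11 genes with an *arg-* symbol were measured, a list made after the members were seen, and the other 8 were not members. For example, *arg-10* (NCU08162) had its highest mean in cellobiose, with 151 CPM there, 75.1 CPM in maltose and 145.5 CPM in trehalose. *lys-3* (NCU03010), an aminoadipate dehydrogenase of lysine synthesis, had 73.2 and 116 CPM on the 2 sugars and 33.5 CPM in cellobiose. The remaining enzymes of this group were a glutamate decarboxylase (NCU06112), which makes GABA, and a methylthioribose-1-phosphate isomerase of methionine salvage (NCU02226, named after its values were seen).

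The 24 genes of rRNA synthesis and ribosome assembly cover the pathway from transcription to late assembly. NCU00419, a polypeptide shared by RNA polymerases I and III, ranked 3 by score. Its samples stood at 20.03, 21.7 and 31.5 CPM in maltose and at 34.9, 42.1 and 35.7 CPM in trehalose, and the highest other sample had 11.0 CPM. A further subunit of RNA polymerase I (NCU11012) had means of 56.8 and 71.1 CPM against 33.8 CPM in glycerol. NCU03952 (Mpp10) and NCU00301 (Sas10/Utp3 family) belong to the particle around the U3 small nucleolar RNA that cuts the precursor rRNA, and they had means of 44.96 and 58.1 CPM in maltose. The RNA helicases *rrp-3* (NCU04504) and *rok-1* (NCU00919) act on the small subunit, and *dbp-7* (NCU06520) and *dbp-9* (NCU07070) on the large one. MAK16 (NCU04150), Ssf2 (NCU04503), pescadillo (NCU00925), the methyltransferase *spb1* (NCU03669) and midasin (NCU06468), a very large ATPase, are factors of the large subunit. Genes of this group named here beyond the 4 with the highest lower mean and the 12 highest scores were chosen after their values were seen. In all 24 the 6 maltose and trehalose samples lay above the 24 others, against 3.87% of the genes tested. The rule itself brings this about, and 79 members of the whole list showed it, so it does not set this group apart.

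Summed over these 24 genes, the 3 trehalose samples had 1340, 1789 and 1339 CPM and the 3 maltose samples 1068, 946 and 1059 CPM. Glycerol followed with 476 to 603 CPM, and mannose was lowest with 84.9 to 106 CPM. In 23 of the 24 genes glycerol was the highest of the 8 other sources, the exception being NCU03952, with 20.7 CPM in sorbose and 19.4 CPM in glycerol. The enzymes of amino acid and nucleotide synthesis were less alike: their highest other source was cellobiose for 3, glycerol for 2, xylose for 2, and sorbose and avicel for 1 each. The rule bounds only the highest of the 8 other means and treats the 8 sources alike. That mean enters the score, however, so these counts are not independent of the choice of members. They are a description, and their share over all genes is not given here.

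Among the 8 members with other work on RNA were *cyt-5* (NCU06308), the RNA polymerase of mitochondria, a subunit of RNA polymerase III (NCU03560), a tRNA-splicing endonuclease subunit (NCU01115), a subunit of a tRNA methyltransferase (NCU09571), lysyl-tRNA synthetase (NCU00931), the splicing helicase PRP16 (NCU03808), a component of the exosome, which degrades and trims RNA (NCU04155), and a pumilio domain protein (NCU09380). All 8 are named for completeness, after their values were seen. Their median relative level, that is log2(mean CPM + 1) minus the gene's mean over the 10 sources, was 1.99 in trehalose, 1.62 in maltose and 0.73 in glycerol, close to the 2.12, 1.68 and 0.75 of the ribosome assembly genes.

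Over all members the median relative level was 1.92 in trehalose and 1.64 in maltose. It was 0.47 in glycerol, 0.24 in xylose, 0.12 in sorbose, -0.30 in avicel, -0.53 in cellobiose, -1.05 in xyloglucan, -1.10 in fructose and -1.34 in mannose, while the median over all genes tested stayed between -0.18 (cellobiose) and 0.05. Among these members cellobiose, itself a disaccharide of glucose, stood below glycerol, xylose and sorbose. The rule leaves out genes whose cellobiose mean reached the lower of the maltose and trehalose means. This order is therefore a description of the members and not independent of their choice. The 3 samples of a source lay close together in most cases: the members' median ran from 0.10 to 0.13 in the sorbose samples and from 0.41 to 0.60 in the glycerol samples. The widest ranges were in cellobiose, from -0.82 to -0.28, and in trehalose, where replicate 2 stood at 2.14 and the other 2 samples at 1.73 and 1.77. Between replicates the members' median CV was highest in mannose (23.6%, against 15.2% for all genes tested) and cellobiose (23.3% against 9.56%). It was 17.4% against 11.1% in trehalose, 16.9% against 8.14% in xyloglucan and 12.8% against 12.4% in maltose. In the order of these medians, the samples of avicel and cellobiose overlapped, as did those of xyloglucan and fructose, and no other neighbours did.

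**Figure D3:**
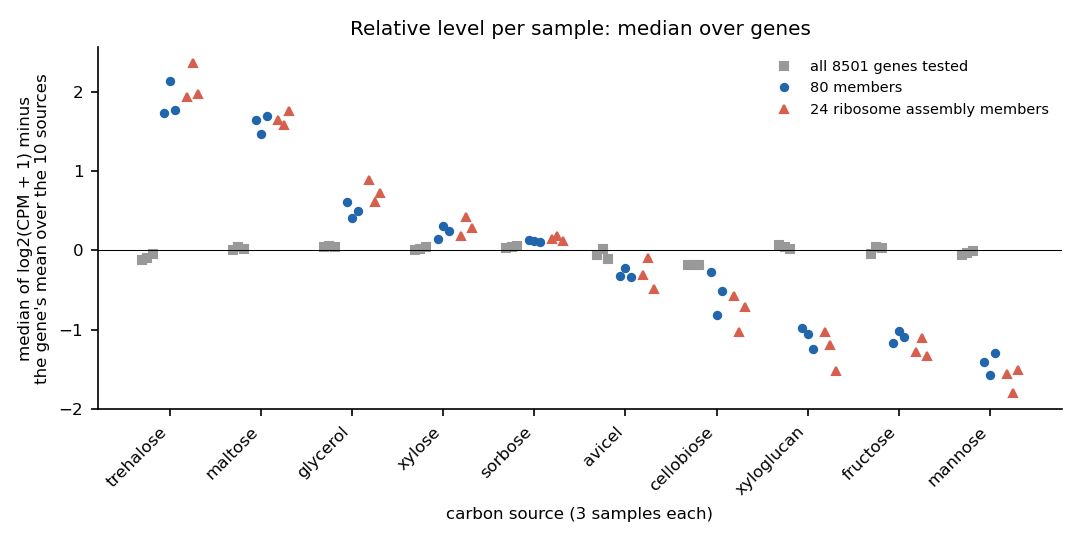
Median over genes of log2(CPM + 1) minus the gene's mean over the 10 carbon sources, for each of the 30 samples: squares for all 8501 genes tested, circles for the 80 members, triangles for the 24 ribosome assembly members. The members' medians fall from 2.14 in a trehalose sample to -1.57 in a mannose sample, trehalose replicate 2 stands above the other trehalose samples, and the squares stay near 0.

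These are bulk samples, in which a change in the share of a cell type cannot be told apart from a change in RNA per cell. Hyphae can begin to form conidia during a change of medium, and the conidiation genes *con-6*, *con-8* and *con-10* and the hydrophobin gene *eas* were detected on every carbon source. Their summed level was 11470 to 24710 CPM in the maltose samples and 5155 to 9817 CPM in the trehalose samples, which did not overlap; it was 6906 to 9126 CPM in fructose and 5105 to 7743 CPM in sorbose, lowest in cellobiose, at 994 to 1427 CPM, and highest in avicel, at 16100 to 29170 CPM. The sum was mostly *eas*, with a mean of 13480 CPM in maltose and 6580 CPM in trehalose. Each of these genes had a higher mean in maltose than in trehalose and its lowest mean in cellobiose. Elsewhere they differed: *con-8* and *con-10* were lower in maltose (536 and 66.2 CPM) than in fructose (847 and 204.6 CPM). Both were highest in mannose (971 and 226.5 CPM), while *con-6* was higher in maltose (2162 CPM) than in fructose (755 CPM). The part of these genes in the results was not tested.

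Whether the members differed between the 2 sugars was tested directly. The rule treats maltose and trehalose alike, so it does not set the direction of a difference. Its score does use the lower of the 2 means, however. The size of a difference, the counts of calls and the p-values are therefore not independent of the choice of members. All comparisons used edgeR's quasi-likelihood test on the counts of all 30 samples, with Benjamini-Hochberg adjustment over the 8501 genes tested, and a gene was called where it changed more than 2-fold with an adjusted p under 0.01. All 80 members passed the filter on low counts. In maltose against trehalose, 7 members (8.75%) were lower in maltose, against 2.34% of all genes tested, and 0 were higher, against 2.58% (3 members were higher at an unadjusted p under 0.05, and DESeq2 also called 0). At an adjusted p under 0.01 and any fold, 30 members (37.5%) were lower and 2 higher, against 10.3% and 9.33% of all genes. The members' median log2 fold change was -0.46, and that of all genes tested was -0.02.

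The largest difference was in NCU03561, annotated as a mitochondrial carrier protein (chromosome II, 225290 to 227626). Its maltose samples stood at 31.2, 25.8 and 60.2 CPM and its trehalose samples at 81.2, 124 and 89.5 CPM, without overlap. It was 2.75-fold lower in maltose (log2 fold change -1.46 with a standard error of 0.34, edgeR adjusted p = 0.002). NCU05650, the karyopherin Kap123, which in yeast carries ribosomal proteins into the nucleus, had 66.8, 53.4 and 78.1 CPM in maltose and 108, 188 and 120.1 CPM in trehalose (log2 fold change -1.20, standard error 0.21, edgeR adjusted p = 0.00014). For *arg-3* the values were 144, 87.8 and 158 CPM against 233, 294 and 215 CPM (log2 fold change -1.06, standard error 0.24, edgeR adjusted p = 0.0016). In all 3 genes the maltose and trehalose samples did not overlap, and trehalose replicate 2 was the highest.

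The remaining 4 calls belonged to the ribosome assembly group. NCU03092, which carries the name of a nuclear localization sequence binding protein and was placed there because yeast Nsr1, of that name, is nucleolar, stood at 130.3, 107 and 127 CPM in maltose and at 231, 297 and 224 CPM in trehalose (log2 fold change -1.18, standard error 0.20, edgeR adjusted p = 0.00012). Pescadillo (NCU00925) stood at 29.4, 29.4 and 41.8 CPM against 54.8, 83.7 and 61.7 CPM (log2 fold change -1.12, standard error 0.17, edgeR adjusted p = 5.6e-05). The small-subunit factor *ltv1* (NCU04165) had a log2 fold change of -1.03 and *spb1* (NCU03669), which is named as the last of the 7 calls, also one of -1.03. In each of the 4 genes every trehalose sample was above every maltose sample.

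Of the 24 ribosome assembly members, 12 were lower in maltose at any fold and 0 were higher (edgeR; 0 higher also at an unadjusted p under 0.05 and by DESeq2), and their median log2 fold change was -0.63. These counts stand against 10.3% and 9.33% of all genes. Of the 24, 4 were lower at any fold without trehalose replicate 2, 7 without maltose replicate 2, 8 without TMM scaling and 6 in a fit of the 2 groups alone. The estimate was below 0 in all 24, in 22 without trehalose replicate 2, and in 23 without maltose replicate 3, in the fit of the 2 groups or with libraries scaled by their totals alone; it was below 0 in all 24 under the other alternatives run. It was closest to 0 in *rok-1* (NCU00919), at -0.03. Of the 237 tested genes in the class of ribosome and RNA that were not members, 18 were lower and 0 higher at the full threshold, 95 were lower and 2 higher at any fold, and their median was -0.51. At the full threshold 11 of these were lower without trehalose replicate 2, without maltose replicate 2 or without TMM scaling. At any fold, 38 were lower without trehalose replicate 2, 36 without maltose replicate 2, 63 without maltose replicate 1, 54 without TMM scaling and 26 in the fit of the 2 groups. A median below that of all genes was thus also found in ribosome and RNA genes outside the list. Amino acid and nucleotide synthesis had a median of -0.54, with 4 of 9 members lower at any fold. *cre-1* (log2 fold change 0.10, standard error 0.19, edgeR adjusted p = 0.72) and *ace-8* (-0.08, standard error 0.24, edgeR adjusted p = 0.81) did not pass the test. Higher in maltose at any fold were the hypothetical genes NCU04830 (0.49, edgeR adjusted p = 0.0078) and NCU07696 (0.66, edgeR adjusted p = 0.0026), of which the second is named after its value was seen.

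The number of calls rested on 2 libraries. In CPM of same-numbered samples, the members' median log2 difference of trehalose minus maltose was largest in replicate 2. It was 0.10, 0.66 and 0.13 in replicates 1, 2 and 3, against -0.11, -0.12 and -0.06 for all genes tested. Of the 24 ribosome assembly members, 19, 24 and 19 were higher in trehalose in these replicates. Without trehalose replicate 2, 1 member was called lower in maltose (NCU03092) and 5 were lower at any fold. Without maltose replicate 2, 3 members were called (NCU00925, NCU03092 and NCU05650) and 9 were lower at any fold, as in the fit of the 2 groups alone, and the members' median was -0.34 and -0.40 without these libraries.

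**Figure D4:**
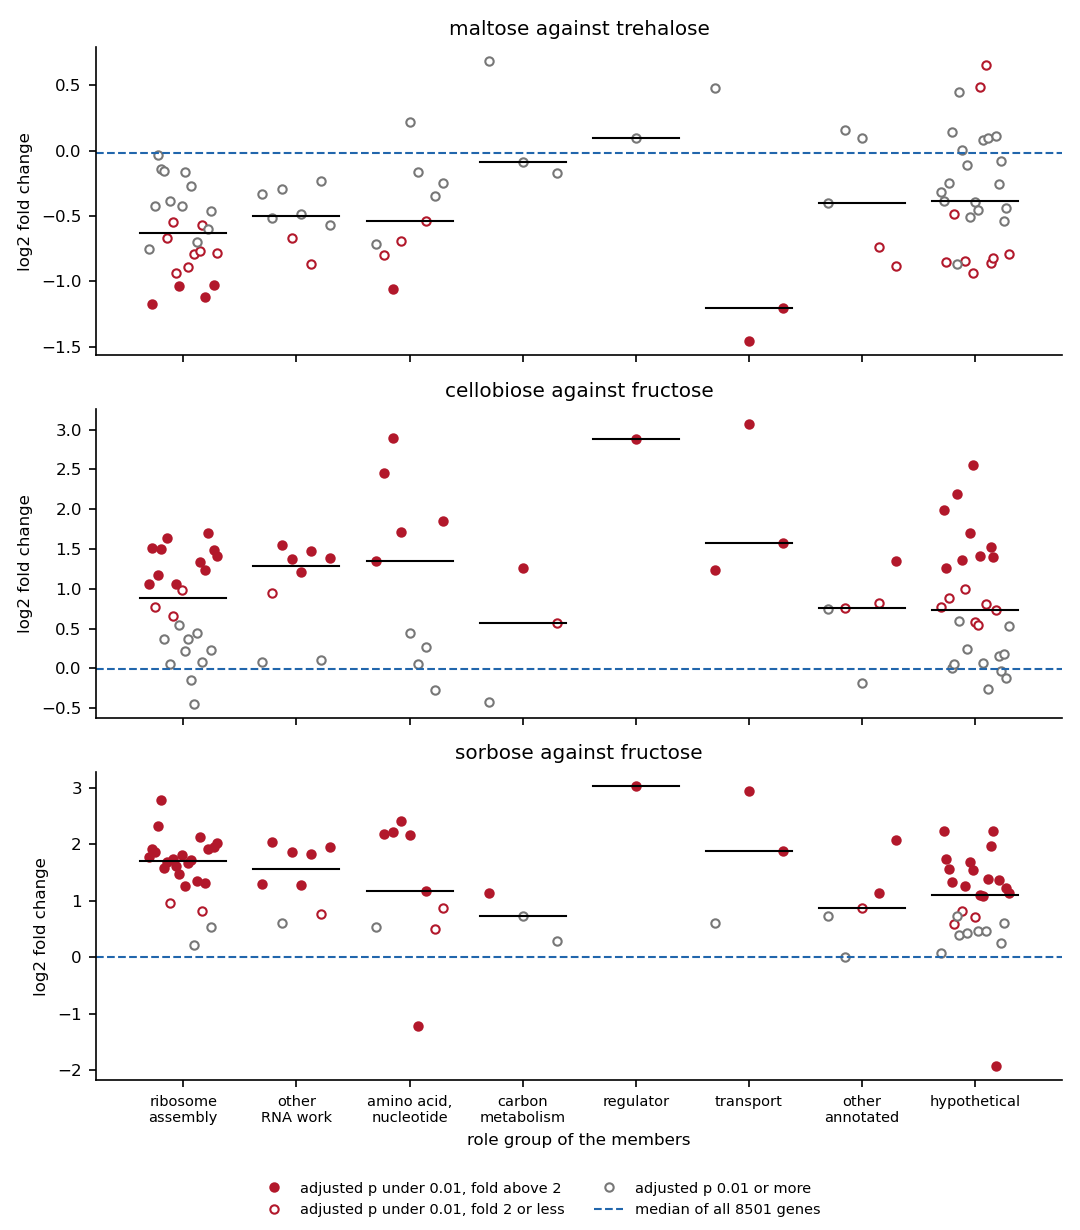
Log2 fold change of each of the 80 members in 3 comparisons, by role group: filled red for an adjusted p under 0.01 and a fold above 2, open red for an adjusted p under 0.01 only, grey for the rest; the black bar is the group's median and the dashed line the median of all 8501 genes tested. The ribosome assembly members lie below 0 in maltose against trehalose, with a median of -0.63, and mostly above 0 in the other 2 panels, with medians of 0.88 and 1.70.

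Among the 8 other carbon sources, 2 comparisons at equal molar concentration were made: cellobiose against fructose and sorbose against fructose. Cellobiose is a disaccharide and fructose a single sugar, so the first comparison was not matched in the carbon supplied. The rule held the means of all 3 sources below those of maltose and trehalose, and the highest other mean, which enters the score, was that of cellobiose in 10 members and of sorbose in 5. The counts below are therefore not independent of the choice of members and are given as a description, with the share of all genes beside them and no p for single genes. The comparisons also share the 3 fructose samples. In cellobiose against fructose, 36 members (45%) were higher in cellobiose and 0 lower, against 9.94% and 12% of all genes tested (0 lower also at an unadjusted p under 0.05 and by DESeq2). At any fold, 50 members were higher and 0 lower, against 26.1% and 26.1% of all genes. The members' median log2 fold change was 0.85, and that of all genes tested -0.01. In the 70 members whose highest other source was neither cellobiose nor fructose, 30 were higher and 0 lower at the full threshold, with a median of 0.79. The conidiation genes named above also differed here, at 994 to 1427 CPM in cellobiose and 6906 to 9126 CPM in fructose, and their part in the result was not tested.

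Of the members past the threshold, the 4 with the largest fold in cellobiose were NCU03561, *arg-3*, *cre-1* and the hypothetical gene NCU00021. *cre-1* stood at 340.3, 254 and 335 CPM in cellobiose and at 63.5, 35.3 and 44.7 CPM in fructose, a 7.36-fold difference. *arg-3* stood at 83.6, 47.2 and 67.3 CPM in cellobiose against 13.8, 5.63 and 10.8 CPM, a 7.43-fold difference. NCU03561 stood at 20.1, 6.41 and 11.7 CPM against 2.28, 1.13 and 1.68 CPM, an 8.44-fold difference. Replicate 2 was the lowest of the cellobiose samples in these 3 genes, and no cellobiose sample overlapped with fructose. Of the ribosome assembly members 11 of 24 were past the threshold, with a median of 0.88. Of the non-members in the ribosome and RNA class 72 of 237 were higher and 2 lower, with a median of 0.80, and without TMM scaling 40 were higher and 5 lower. All 3 members annotated for transport and 5 of the 9 for amino acid and nucleotide synthesis were past the threshold.

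In sorbose against fructose, which are both ketohexoses, 52 members (65%) were higher in sorbose and 2 lower, against 8.22% and 6.88% of all genes tested. At any fold, 61 members were higher and 2 lower, against 20.1% and 19.6%. The median log2 fold change was 1.33 over the members and 0.01 over all genes tested. In the 75 members whose highest other source was neither sorbose nor fructose, 48 were higher and 2 lower at the full threshold, with a median of 1.31. *cre-1* stood at 433, 385 and 401 CPM in the sorbose samples, 8.21-fold above fructose. Next came NCU03561 with a log2 fold change of 2.96, Mpp10 (NCU03952) with 2.79 and IMD2 (NCU03117) with 2.43. Mpp10 stood at 23.4, 19.6 and 19.1 CPM in sorbose and at 2.78, 3.28 and 2.67 CPM in fructose. Ribosome assembly members were past the threshold in 20 of 24 cases, with a median of 1.70. Among the 237 non-members in the ribosome and RNA class, 45 were higher and 2 lower, with a median of 0.40.

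The 2 members that were lower in sorbose were the hypothetical gene NCU02910 and the glutamate decarboxylase gene NCU06112. NCU02910 stood at 1.90, 1.96 and 2.39 CPM in sorbose against 5.93, 8.50 and 8.89 CPM in fructose (log2 fold change -1.93). NCU06112 stood at 9.73, 7.33 and 8.22 CPM against 23.3, 16.7 and 17.2 CPM (log2 fold change -1.22). In a fit with each library's percentage of reads outside genes as a covariate, added after seeing the data, NCU06112 no longer passed.

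The study sorted genes into sets with other cultures, grown with 2% maltose or starch polymers or lacking the regulator COL-26, and only the membership of these sets was used. Of the 80 members, 51 (63.8%) were in the COL-26-dependent set, to which 4.26% of the genes tested belong, and they made up 14% of its 363 genes. Of the 956 genes that passed the rule's thresholds, 194 (20.3%) were in it. This overlap was known from earlier work on these samples and is given as a description. The study reports rRNA processing genes as overrepresented in this set, and most of the set as also reduced in WT cells without a carbon source. The set held 23 of the 24 ribosome assembly members and 7 of the 8 with other RNA work, but 4 of the 9 for amino acid and nucleotide synthesis, and neither *cre-1* nor any member annotated for transport or carbon metabolism. It held all but 1 of the 5 with another annotation. In the COL-26-reduced set (421 genes, 4.95% of the genes tested) there were 0 members, and it also held 0 of the 956 genes that passed the rule's thresholds. In the starch regulon (322 genes) there were 4 members (5%, against 3.79% of the genes tested): NCU02910, NCU03497, NCU08475 and NCU09395. A single member, NCU03497, was in the maltose-inducible set of 736 genes, to which 8.62% of the genes tested belong. From the starch regulon and the maltose-inducible set the study had taken out genes that changed in the same way on sucrose. Its 2% maltose cultures also had a preculture on cellobiose, a time without carbon and a longer exposure than the samples here. A gene outside these 2 sets can therefore still have been raised by maltose or starch polymers in those cultures.

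NCU03497 was thus the only member in both the starch regulon and the maltose-inducible set. Its samples stood at 291, 321 and 401 CPM in maltose and at 239, 244 and 179.9 CPM in trehalose, and the highest of the other samples had 126 CPM. The difference between the sugars did not pass the test (log2 fold change 0.48, standard error 0.31, edgeR adjusted p = 0.24). NCU08475, a hypothetical gene, stood at 261, 213 and 245 CPM in maltose and at 205, 238 and 212 CPM in trehalose. Its maltose and trehalose samples overlapped and the test was not passed (log2 fold change 0.005, standard error 0.18, edgeR adjusted p = 0.99).

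RefSeq's annotation of assembly NC12 holds all 80 members. They lie on all 7 chromosomes, with 17 on chromosome I, 15 on V, 12 on IV, 10 each on II, III and VII, and 6 on VI. Their median gene length was 2316.5 bp, against 2295.5 bp for the genes tested. In 3 places members were next to each other among the counted genes. NCU03561 and NCU03560, a subunit of RNA polymerase III, are 427 bp apart on chromosome II. *rrp-3* (NCU04504, chromosome IV, 3150825 to 3152878) and Ssf2 (NCU04503, 3153050 to 3154985), which both act in ribosome assembly, are 171 bp apart. NCU04827, which has no annotation, and the hypothetical gene NCU04830 lie 7841 bp apart on chromosome VI. The members of a pair differed in level: *rrp-3* had means of 22.3 CPM in maltose and 27.3 CPM in trehalose, and Ssf2 56.1 and 76.1 CPM.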

How the data were processed

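The mRNA of 30 WT samples was sequenced. The authors filtered reads by base quality, mapped them with TopHat2 2.0.4 (version from the submitters' processing notes) to transcripts predicted for the OR74A genome (version 12), and deposited raw counts per gene made with HTSeq 0.6.0. Whether reads were counted by strand is not given in the sources used here. Reads outside genes, ambiguous (1.44% to 2.14%) or mapped to several places (0.217% to 6.05%) were assigned to no gene, which can lower the counts of near-identical copies. The FPKM of the study were not used.

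CPM were computed over gene rows. For the tests, genes were filtered with filterByExpr (8501 kept), scaled by TMM (factors 0.893 to 1.06) and fitted with edgeR 4.0.16 (limma 3.58.1, R 4.3.3) to all 30 samples, each carbon source having its own mean; a gene was called at a fold above 2 and a Benjamini-Hochberg adjusted p under 0.01, the thresholds of the study. The standard error of a log2 fold change was taken as its size over the root of F. The fit was tested on simulated counts. No test was made of maltose or trehalose against the other sources, because those values chose the members. The members and the gene lists were chosen with earlier results of these data known. Named genes are the 12 highest scores, the 3 on each side of the last place, the largest calls (6 in each direction for maltose against trehalose, 4 for the others), the 4 most abundant of each word class, members that the study names in its text, and neighbouring members; others are said to be chosen after their values were seen.

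Replicates are separate samples by their labels and biological replicates by the methods of the study; no 2 replicates agreed within sampling noise (chi-square per degree of freedom at least 5.49). With 3 samples per group, p-values reflect the spread among these samples. Same-numbered sorbose and fructose samples deviated together (correlations 0.42, 0.14 and 0.35), and the numbers come from the sample labels. The main fit did not pair them, and only the replicate block, run as an alternative, took the numbers into account. Alternatives were DESeq2 1.42.0, no TMM, no filter, the replicate block, a fit of 2 groups only, leaving out each replicate, and, added after seeing the data, a covariate for reads outside genes and calls at any fold; for the score, other scalings, pseudocounts (0.1 for 1 CPM), the median of replicates and a minimum of 1 CPM. No genome sequence was used, so promoters were not examined.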

Additional observations from a re-analysis of the deposited data

How the results depend on the processing

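In maltose against trehalose, the count of 7 members lower in maltose became 30 with calls at any fold, 3 without TMM scaling and 2 in a fit of the 2 groups alone, and it ranged from 1 to 10 when single replicates were left out; the count of members higher in maltose was 0, and 2 with calls at any fold. Without TMM scaling the median of all genes moved to 0.11, and the members' median stayed 0.43 below it on the log2 scale (members -0.32). In cellobiose against fructose the same change moved the median of all genes to -0.20, with 33 members higher, and 1 member lower at any fold. In sorbose against fructose, the covariate left 1 of the 2 members lower. With the replicate block, 7 members were lower in maltose, 36 were higher in cellobiose and 52 in sorbose, which left these counts as they were; at any fold the count of members lower in maltose was 33. In maltose and trehalose, same-numbered samples deviated together in replicate 1 only (correlations of deviations 0.45, -0.06 and -0.04). In cellobiose and fructose the correlations were 0.25, 0.22 and 0.01. The share of reads outside genes was also lowest in replicate 1 of maltose (2.56%) and of trehalose (2.43%). Whether the replicate numbers stand for a batch is not given by the labels and was not tested. Leaving out a replicate number in every source kept 69 to 72 members, and the median of replicates kept 67. Of the named genes' values under alternatives, 174 stayed on the same side of the threshold, 18 lost it and 0 reversed. Standard errors of the members' log2 fold changes between maltose and trehalose ran from 0.12 to 0.34, which limits what 3 samples per group can resolve.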

Other observations

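Central carbon metabolism had 3 members, none of which passed the test between maltose and trehalose. NCU09489, annotated as a phosphoglycerate mutase, stood at 43.7, 37.7 and 36.05 CPM in maltose and at 23.7, 25.7 and 17.2 CPM in trehalose, without overlap, and its log2 fold change of 0.69 missed the threshold (edgeR adjusted p = 0.011). This gene is named after its values were seen. *ace-8* had means of 1525 and 1475 CPM and *tca-9* of 432 and 444 CPM in maltose and trehalose, and their samples overlapped. The next source was cellobiose for both, with 810 and 268 CPM, and glycerol for NCU09489, with 10.2 CPM.

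The *arg-* genes that are not members had differing orders of cellobiose, maltose and trehalose. The mean of *arg-6* (NCU00567) was 155 CPM in cellobiose, 105 CPM in maltose and 132 CPM in trehalose. *arg-5* (NCU05410) had 27.9 CPM in cellobiose, 18.1 CPM in maltose and 34.0 CPM in trehalose, while *arg-14* (NCU07682) and *arg-15* (NCU05622) varied little, from 81.8 to 129 CPM and from 49.9 to 69.3 CPM over the 10 sources. These genes and the list were chosen after the values were seen.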
